A study of Mus musculus with 20 samples.

Results

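Cfd, Adipoq, Plin1, Cidec, Lep, Retn and Car3, 7 genes whose products mark fat cells, were followed through 20 mouse hearts. They were chosen by symbol and make up 7 of the 23284 genes in each table. Gene expression was measured by stranded sequencing of messenger RNA from total heart RNA of C57BL/6 mice. Control mice were Wnt5a floxed, and CKO mice were Wnt5a floxed with Myh6-Cre/Esr 1, a transgene in which the Myh6 promoter, active in cardiac myocytes, drives a Cre recombinase that tamoxifen switches on. All mice therefore carried the floxed Wnt5a alleles, and fat cells are not the cells in which this promoter is active. Each genotype was sampled when tamoxifen treatment ended, and either 2 or 4 weeks following transverse aortic constriction (TAC), which loads the left ventricle, or a sham procedure. That gave 10 groups of 2 hearts. The labels number the hearts and do not give age, sex or which chambers were collected.

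White adipocytes store triglyceride in 1 large droplet, whose surface they coat with perilipin 1 and CIDEC, and they secrete the hormones and enzymes called adipokines. Fat lies outside the muscle of the heart, along the atrioventricular groove and in the pericardium, under a sheet of mesothelial cells. Cardiac myocytes also import and burn fatty acids, so they and the capillaries of the heart share many lipid-handling genes with fat cells. The 7 genes here belong to the part of the adipocyte programme that working myocardium is not known for.

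The 7 genes are placed on the mouse build mm10 by GENCODE M21. Cfd, which encodes complement factor D (adipsin), lies on chromosome 10 from 79890853 to 79892655 on the plus strand. Adipoq, which encodes adiponectin, lies on chromosome 16 from 23146536 to 23158028, and Lep, which encodes leptin, on chromosome 6 from 29060220 to 29073877, both on the plus strand. Retn, the gene of resistin, lies on chromosome 8 from 3655770 to 3660110, and Car3, the gene of the cytosolic carbonic anhydrase 3, on chromosome 3 from 14863512 to 14872523, both on the plus strand. Plin1 spans 79720218 to 79732903 on chromosome 7 and Cidec 113424634 to 113435760 on chromosome 6, both on the minus strand.

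The promoters are shown because C/EBP proteins and PPARG, the main transcription factors of fat cells, are known to act on several of the genes. Whether the promoters bear on how the genes varied between hearts was not tested. RefSeq promoter windows (GRCm38.p6, 250 bases before to 50 after each start site) were matched for 6 of the 7 genes, in 7 windows, and Car3 was not matched. A C/EBP motif, TTGCNNAA on either strand, was found in 3 of the 7 windows and in 10.8% of all 32851 windows. Below, the 250 bases before the start of Lep carry it in capitals at position -55, and those before Adipoq carry 3 CCAAT boxes in capitals (CCAAT, or ATTGG on the other strand). Stretches of 30 bases around the matches in Plin1 and in the second window of Cidec follow, at -187 and -58 and at -198.
Lep, chr6:29059971-29060220, plus strand: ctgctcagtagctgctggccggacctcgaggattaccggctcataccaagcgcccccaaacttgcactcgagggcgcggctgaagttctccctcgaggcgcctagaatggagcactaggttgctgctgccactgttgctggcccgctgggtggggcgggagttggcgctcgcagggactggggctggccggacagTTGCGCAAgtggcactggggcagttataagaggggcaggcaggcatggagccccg
Adipoq, chr16:23146286-23146535, plus strand: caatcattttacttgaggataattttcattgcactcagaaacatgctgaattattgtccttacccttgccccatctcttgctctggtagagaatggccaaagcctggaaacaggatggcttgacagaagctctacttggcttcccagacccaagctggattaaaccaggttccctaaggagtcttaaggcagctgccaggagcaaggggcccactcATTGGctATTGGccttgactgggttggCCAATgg
Plin1, chr7:79732945-79732974, minus strand: ccacctctttaTTGCCTAAacatcccccat
Plin1, chr7:79732816-79732845, minus strand: tctgagaggcaTTGCCCAAgattccctgga
Cidec, chr6:113434944-113434973, minus strand: ggagggctctaTTGCTCAAgggcccatggg

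CCAAT, on either strand and found without overlap with the C/EBP matches, was in 1 of the 7 windows and in 37.4% of all windows. The PPAR-RXR element, AGGNCA repeated after 1 free base, was in 0 of the 7 and 0.381% of all, the receptor half-site AGGTCA in 0 and 16.3%, and the TATA box TATAAA in 0 and 13.6%. These are letter matches in short windows and not measured binding sites.

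All 7 genes were low. Values are FPKM, in which the fragments of a gene are divided by its length and by library size, and they can be set side by side between genes because they are per length. Over 20 hearts the mean was 2.43 FPKM for Cfd, 1.72 for Car3, 0.530 for Adipoq, 0.490 for Retn, 0.214 for Cidec, 0.102 for Plin1 and 0.0112 for Lep. The FPKM of each gene moved in even steps, which gave whole fragments to within 0.032 of a fragment if the smallest step is 1 fragment. By that reading the 20 hearts together held 350 fragments of Car3, 265 of Cfd, 83 of Adipoq, 49 of Cidec, 28 of Retn, 26 of Plin1 and 5 of Lep. Lep was at 0 in 16 hearts, Plin1 in 8, Retn in 7, Cidec in 4, Adipoq in 3 and Cfd and Car3 in 1 each. A gene at 0 may still reach the level of 3 fragments, which in the heart with the most depth is 0.453 FPKM for Cfd and 0.106 FPKM for Lep. Relative depth, from the steps of 1558 genes, was 0.877 to 1.21 over the libraries, and 96.3% of 19291 values lay within 5% of a whole multiple. Intervals and limits given here cover counting error only.

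Cfd encodes the serine protease that starts the amplification loop of the alternative complement pathway, and it was the gene with the widest range. When tamoxifen ended it was 0.397 and 0.955 FPKM in controls and 1.90 and 3.36 in CKO. After sham at 2 weeks it was 3.73 and 2.31 in controls, and 17.0 and 2.04 in CKO hearts 14 and 15. After sham at 4 weeks it was 1.69 and 0.772 in controls and 1.56 and 0.554 in CKO. After TAC it was 3.76 and 1.60 in controls and 0.669 and 0.319 in CKO at 2 weeks, and 0.575 and 0 in controls and 0.622 and 4.75 in CKO at 4 weeks. CKO sham heart 14 thus stood 3.57-fold above the next heart, CKO TAC heart 41 at 4 weeks, and held 35.0% of the Cfd summed over all hearts. The 95% Poisson interval of heart 14, from 92 fragments, was 13.7 to 20.8 FPKM, and that of its partner heart 15, from 10 fragments, was 0.977 to 3.75. Group means ran from 9.51 ± 10.6 FPKM (SD, n = 2) in CKO sham at 2 weeks and 3.02 ± 1.01 in control sham at 2 weeks to 0.287 ± 0.406 in control TAC at 4 weeks. The second to the fifth group in that order, at 2.63 to 3.02 FPKM, differed from each other by less than their spread.

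Adipoq encodes the most abundant hormone of fat tissue, which raises insulin sensitivity. It was 0 and 0.133 FPKM in controls and 0.482 and 0.740 in CKO when tamoxifen ended. After sham at 2 weeks it was 0.823 and 0.991 in controls and 2.45 and 0.712 in CKO, and at 4 weeks 0.353 and 0.404 in controls and 0.409 and 0.258 in CKO. After TAC it was 0.914 and 0.496 in controls and 0.233 and 0 in CKO at 2 weeks, and 0.401 and 0 in controls and 0.145 and 0.664 in CKO at 4 weeks. Heart 14 was again the highest, 2.47-fold above control sham heart 16. Group means ran from 1.58 ± 1.23 FPKM (SD, n = 2) in CKO sham at 2 weeks to 0.0667 ± 0.0943 in controls at the end of tamoxifen. Between the fifth and seventh group the means of 0.334 to 0.404 FPKM lay within the spread of a group.

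Car3 is among the most abundant proteins of mouse white fat and is also made by slow skeletal muscle. At the end of tamoxifen it was 0.107 and 0.723 FPKM in controls and 1.12 and 2.104 in CKO. After sham at 2 weeks it was 3.62 and 3.65 in controls and 7.49 and 2.21 in CKO, and at 4 weeks 0.821 and 0.418 in controls and 1.80 and 0.799 in CKO. After TAC it was 3.01 and 2.21 in controls and 1.54 and 0.776 in CKO at 2 weeks, and 0.311 and 0 in controls and 0.225 and 1.54 in CKO at 4 weeks. Sham and control TAC hearts at 2 weeks were high, and the control TAC hearts at 4 weeks were the lowest group by mean, at 0.155 ± 0.220 FPKM (SD, n = 2) against 4.85 ± 3.74 in CKO sham at 2 weeks.

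Retn encodes resistin, an adipokine that opposes insulin in mice, and 1 fragment of it is worth 0.348 FPKM at mean depth. It was 0 in both control hearts at the end of tamoxifen, in both control sham and both control TAC hearts at 4 weeks, and in CKO TAC heart 3, and it was highest in heart 14, at 2.47 FPKM from 7 fragments. The next were heart 41 at 1.09, CKO sham heart 8 at 1.06 and control TAC heart 32 at 1.02 FPKM, each from 3 fragments, so most of the hearts cannot be ordered. Lep, whose product tells the brain of the size of the fat stores, had 2 fragments in heart 14 and 1 each in hearts 3, 15 and 16.

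Plin1 and Cidec coat the lipid droplet, the first as the gatekeeper of lipolysis and the second as the protein that lets droplets fuse. Plin1 was highest in control sham heart 12, at 0.340 FPKM, followed by heart 14 at 0.319 and control TAC heart 11 at 0.283, each from 4 fragments. Cidec was highest in heart 14, at 0.971 FPKM from 11 fragments, with a 95% Poisson interval of 0.485 to 1.74, and then in CKO sham heart 4 at 0.561 and heart 11 at 0.470. Both were at 0 in hearts 22, 31 and 2.

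**Figure D1:**
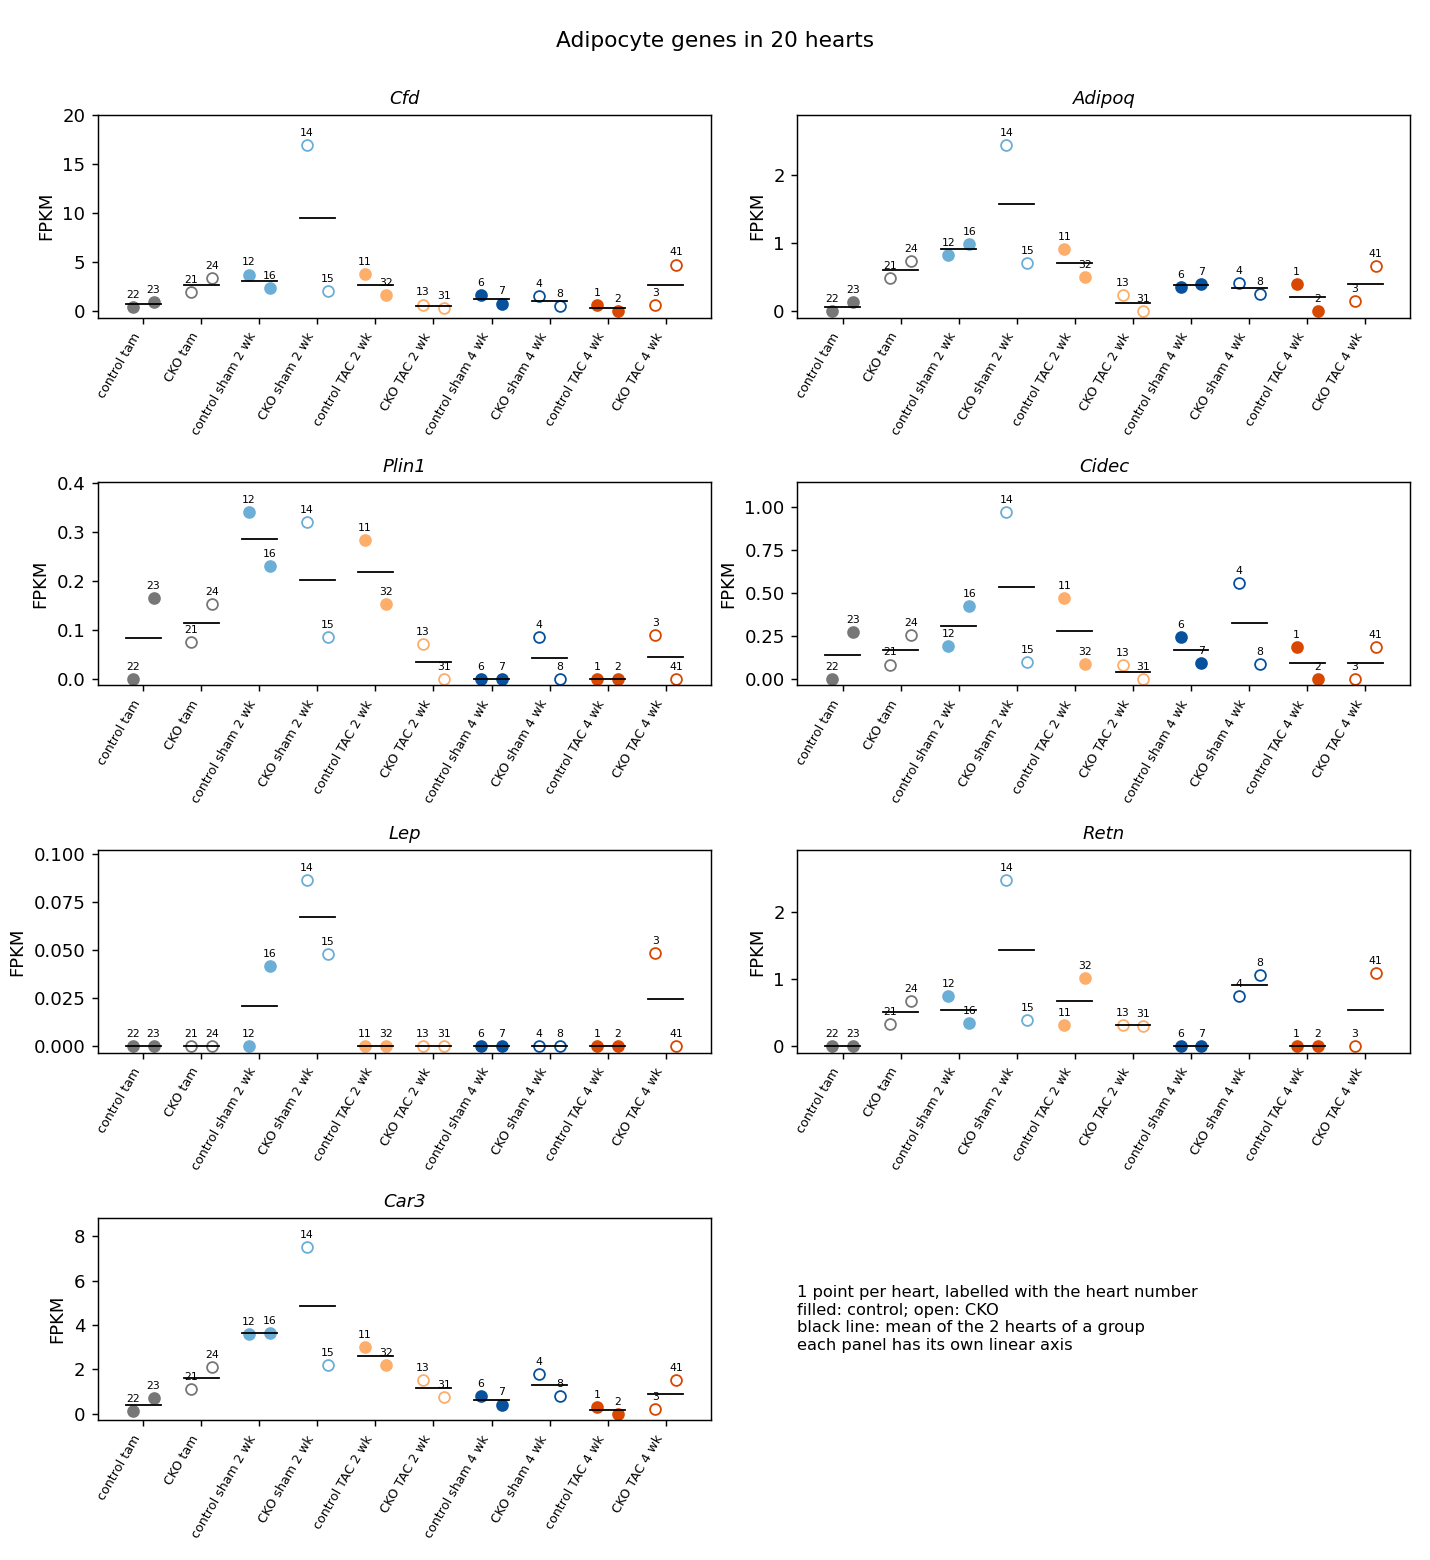
FPKM of the 7 adipocyte genes, 1 point per heart with its number, in 10 groups along the horizontal axis, with a line at the mean of each group and a linear axis of its own for each gene. Heart 14 is the highest point for 6 of 7 genes and heart 12 for Plin1, and heart 2 is at 0 for all.

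The genes moved together by heart. Heart 14 was the highest of the 20 for 6 of 7 genes and held 210 fragments of the 7, while heart 15 of the same group held 39. Heart 2, a control TAC heart at 4 weeks and the library with the most depth, held 0 fragments, and its partner heart 1 held 11. In 5 of the 10 groups every gene that differed between the 2 hearts was higher in the same heart, for example 7 of 7 in heart 14 against 15, 6 of 6 in heart 24 against 21 and 6 of 6 in heart 13 against 31. Retn had 1 fragment in each of hearts 13 and 31, so depth alone separated them. Control TAC at 4 weeks is among the 5 groups by construction, because heart 2 was at 0 for every gene. The largest step between 2 hearts of a group was in CKO sham at 2 weeks for 6 of 7 genes, Lep being the other. In the other 5 groups genes went both ways, as in control sham at 2 weeks, where 3 were higher in heart 12 and 4 in heart 16 on totals of 67 and 69 fragments. In control sham at 4 weeks this rested on Adipoq, which had 3 fragments in each heart.

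Over the 20 hearts, on log2(FPKM + 0.5), Pearson's r was 0.93 for Cfd with Adipoq, 0.87 for Cfd with Car3 and 0.88 for Adipoq with Car3. Without heart 14 these were 0.89, 0.82 and 0.84. The hearts share groups and fragment numbers are small, so these values describe the hearts and carry no test. Plin1 and Cidec had r of 0.70 and 0.77 with Cfd, and Retn 0.71. Lep had r of 0.48 with Cfd and 0.07 without heart 14.

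Spread between hearts of a group was large beside the median over all tested genes. Cfd, Adipoq and Car3 passed the filter, a mean over hearts of 0.5 FPKM or more, which left 12589 genes to be tested, while Retn at 0.490 lay just under it and Adipoq at 0.530 just over it. Without heart 14 the mean of Adipoq was 0.429 FPKM, under that limit. The residual SD of log2(FPKM + 0.5) in the limma model was 0.95 for Cfd, 0.64 for Car3 and 0.45 for Adipoq, against a median of 0.16 over all tested genes. Those values lay above 98.9%, 97.7% and 95% of tested genes. The median difference between the 2 hearts of a group was 0.87, 0.69 and 0.42 for the same genes, and 0.16 over all tested genes. The tested genes were not matched for level, and counting error alone widens the spread of genes with few fragments. Over all hearts Cfd had 265 fragments, Car3 350 and Adipoq 83. How much of their spread was counting error was not tested, so these ranks are not a measure of differences between hearts alone.

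Markers of tissue that lies beside the ventricle were set beside these values. Myl7, an atrial myosin light chain, was at 10 FPKM or more in 5 hearts, with 372 in heart 14, 323 in heart 21, 72.6 in heart 11, 50.6 in heart 24 and 32.2 in heart 16, and at most 1.66 in the other 15. The number of adipocyte fragments in the same 5 hearts was 210, 30, 76, 54 and 69, and it ranged from 0 to 67 in the other 15. The 2 hearts with the most Myl7 thus had 210 and 30 fragments. Heart 41 had Myl7 at 0 and 50 fragments, 25 of them of Cfd, and heart 12 had Myl7 at 0.736 FPKM and 67. The summed level of the 9 atrial markers was 1622 FPKM in heart 14 and 371 in heart 15, and it includes Nppa, at 625 and 169.9 FPKM in these hearts, which rose by 4.90 ± 0.39 with TAC in control hearts (log2, SE, limma adjusted p = 1.4e-06).

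Mesothelial genes were also highest in heart 14, for 7 of the 9 measured, among them Upk3b at 2.02 FPKM, Msln at 1.87 and Lrrn4 at 0.767. The share of all tested genes that were highest in heart 14 was not computed. The summed level of the 9 mesothelial genes was 12.0 FPKM in heart 14 and 1.75 to 6.96 in the other 19. Of these genes, Upk3b was at 0 in 8 hearts and Msln in 6, and both were at 0 in heart 41. Wt1, of the same list, was above 0 in every heart and not highest in heart 14. It ranged from 0.874 FPKM in heart 3 to 3.44 in heart 13, with 2.38 in heart 14 and 1.56 in heart 41. Of the 6 lung markers, Sftpc, Sftpa1 and Sftpd were at 0 in every heart, while Sftpb was above 0 in 2 hearts, at most at 0.0820 FPKM, Scgb1a1 was at 0.525 in heart 23 and Scgb3a2 at 0.194 in heart 21. Ucp1, the uncoupling protein that defines brown fat, was at 0 in all 20. Lhx8 and Bmp8b of the same brown fat list were at 0 too, while 15 genes of that list had signal. Among these, Cidea ranged from 37.4 to 76.1 FPKM and Kcnk3 from 61.2 to 130. How far attached tissue accounts for the values of heart 14 was not tested. In these bulk samples, fewer fat cells and less RNA per fat cell cannot be told apart.

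**Figure D2:**
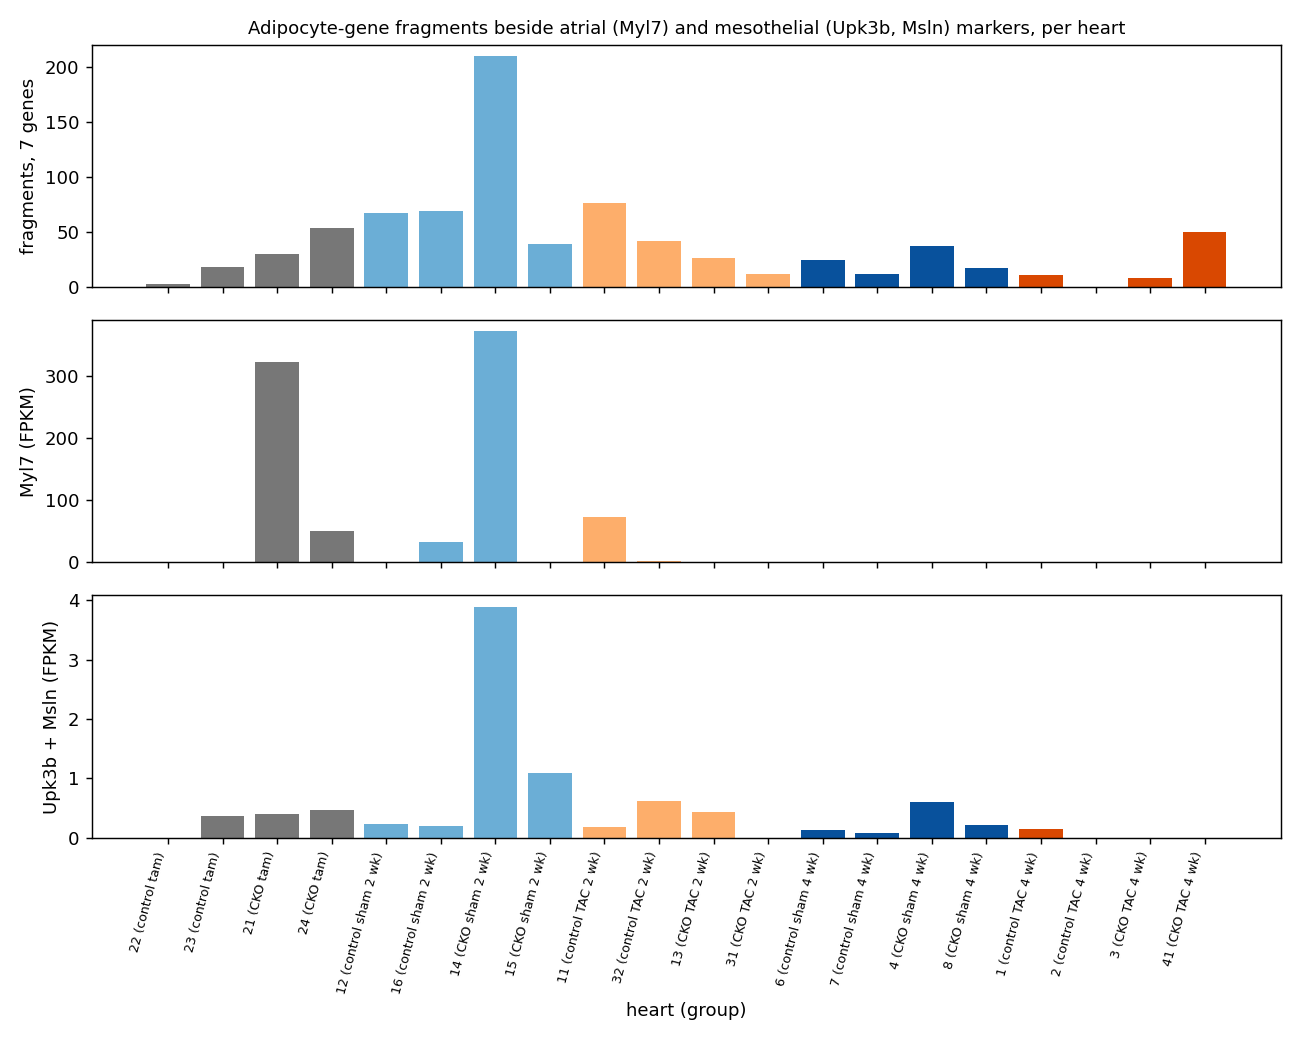
Fragments summed over the 7 adipocyte genes (top), Myl7 in FPKM (middle) and the sum of Upk3b and Msln in FPKM (bottom), 1 bar per heart, coloured by stage and labelled with heart and group. Heart 14 has the highest bar in each panel, at 210 fragments and 372 FPKM of Myl7, while heart 21 has 323 FPKM of Myl7 and 30 fragments.

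Genotype was compared first. Over all 5 stages CKO minus control was 0.46 ± 0.37 for Cfd (log2, SE), 0.14 ± 0.19 for Adipoq and 0.41 ± 0.25 for Car3, and 0 of the 3 passed limma (adjusted p = 0.77, 0.88 and 0.71), where 0.151% of all tested genes were called. An unadjusted p under 0.05 was reached by 0 of 3. Retn, which lay under the filter, was at 0.70 ± 0.24 in the fit without a filter (limma adjusted p = 0.45, unadjusted p = 0.014), and it was at 0 in 6 of 10 control and 1 of 10 CKO hearts. The 10 CKO and 10 control hearts overlapped for 7 of 7 genes, and 0.00794% of all tested genes were higher in CKO without overlap.

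At the end of tamoxifen some of the genes were higher in CKO hearts. Cfd, Adipoq, Retn and Car3, 4 of the 7, did not overlap between the 2 CKO and 2 control hearts and were higher in CKO, as were 16.9% of all tested genes. The log2 differences were 1.41 ± 0.82 for Cfd, 0.97 ± 0.42 for Adipoq and 1.25 ± 0.56 for Car3. None of the 3 passed limma (adjusted p = 1 for each; unadjusted p = 0.11, 0.036 and 0.043), where 0.0159% of tested genes were called. Both CKO hearts of this stage had Myl7 at 10 FPKM or more, at 323 and 50.6, and the 2 controls had 0 and 1.07, so genotype and atrial transcripts cannot be told apart here. In sham hearts of both times the differences were 0.39 ± 0.58, 0.17 ± 0.30 and 0.41 ± 0.40 and in TAC hearts 0.06 ± 0.58, -0.30 ± 0.30 and 0.00 ± 0.40 for Cfd, Adipoq and Car3. Limma called 0 of the 3 in either (adjusted p of 0.67 to 1, unadjusted p of 0.32 or more), beside 0.00794% and 3.45% of all tested genes. With heart 14 left out the sham difference was -0.31 for Cfd and -0.15 for Adipoq.

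The means over both times after TAC averaged differences of opposite sign. These comparisons within a time were added after the values were seen. At 2 weeks after TAC, CKO minus control was -1.61 ± 0.82 for Cfd, -0.97 ± 0.42 for Adipoq and -0.94 ± 0.56 for Car3. There 0 of 3 were called (limma adjusted p = 0.45, 0.35 and 0.55), beside 0.413% of all tested genes called. An unadjusted limma p under 0.05 was reached by 1 of 3, and by 1606 of the 12589 tested genes. Cfd, Adipoq, Plin1, Cidec and Car3, 5 of the 7, were lower without overlap in the CKO hearts of that time, as were 18.3% of all tested genes. Cidec had 1 fragment each in CKO heart 13 and control heart 32, so depth alone separated those hearts. Control heart 11 there had Myl7 at 72.6 FPKM, control heart 32 at 1.66 and both CKO hearts at 0, and its part in the difference was not tested. At 4 weeks after TAC the differences were 1.73 ± 0.82, 0.37 ± 0.42 and 0.93 ± 0.56, with 0 of 3 called (limma adjusted p = 0.44, 0.81 and 0.57; 0 of 3 at an unadjusted p under 0.05), beside 0.834% of all tested genes. Cfd alone of the 7 was higher there without overlap, as were 21.5% of all tested genes, and without heart 41 its difference was 0.61. The change of the genotype difference from 2 to 4 weeks after TAC was 3.34 ± 1.16 for Cfd, 1.34 ± 0.59 for Adipoq and 1.87 ± 0.79 for Car3. There 0 of 3 were called (limma adjusted p = 0.82, 0.94 and 0.92), beside 0.00794% of all tested genes called. An unadjusted limma p under 0.05 was reached by 3 of 3, and by 658 of the 12589 tested genes.

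In sham hearts CKO minus control was 0.95 ± 0.82, 0.43 ± 0.42 and 0.17 ± 0.56 for Cfd, Adipoq and Car3 at 2 weeks, and -0.18 ± 0.82, -0.08 ± 0.42 and 0.65 ± 0.56 at 4 weeks. Limma called 0 of 3 at either time (adjusted p of 0.88 to 1; 0 of 3 at an unadjusted p under 0.05), beside 0.00794% of all tested genes at each. Without heart 14 the differences at 2 weeks were -0.44, -0.21 and -0.61. Lep at 2 weeks and Retn at 4 weeks, 1 of 7 each, were higher in CKO without overlap, as were 14.6% and 17.1% of all tested genes. Lep had 1 fragment each in CKO heart 15 and control heart 16, so depth alone separated those hearts.

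TAC was compared with sham next. In CKO hearts at 2 weeks Cfd fell from 17.0 and 2.04 FPKM to 0.669 and 0.319, and Adipoq from 2.45 and 0.712 FPKM to 0.233 and 0. The log2 difference was -2.77 ± 0.82 for Cfd (SE, limma adjusted p = 0.031) and -1.64 ± 0.42 for Adipoq (limma adjusted p = 0.016). Car3 was at -1.53 ± 0.56 and missed the threshold (limma adjusted p = 0.071). Of all tested genes, 9.21% were called lower and 19.3% in either direction. Adipoq passed the filter only through the level of sham heart 14, so a count of called genes is no support here. All 7 genes were lower in both TAC hearts than in both sham hearts, as were 30.8% of all tested genes. Plin1, Cidec and Retn, however, had 1 fragment each in TAC heart 13 and in sham heart 15, so depth alone separated those hearts. Lep was at 0 in both TAC hearts and had 2 fragments in heart 14 and 1 in heart 15. Sham hearts 14 and 15 held 210 and 39 fragments of the 7 genes, and TAC hearts 13 and 31 held 26 and 12.

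Both calls rested on single hearts. Without heart 14 the differences were -1.38 for Cfd (limma adjusted p = 0.25) and -1.001 for Adipoq (limma adjusted p = 0.13). Without TAC heart 31 the adjusted p was 0.19 and 0.15, and without TAC heart 13 that of Cfd was 0.063. Car3, in turn, passed without heart 15, 3 or 41 (limma adjusted p of 0.0489 to 0.0496). Fitting only the 2 groups compared gave 0 of 3 calls, with adjusted p of 0.16 and 0.13. Leaving out the 5 hearts in which Myl7 reached 10 FPKM, they were 0.30 and 0.16.

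**Figure D3:**
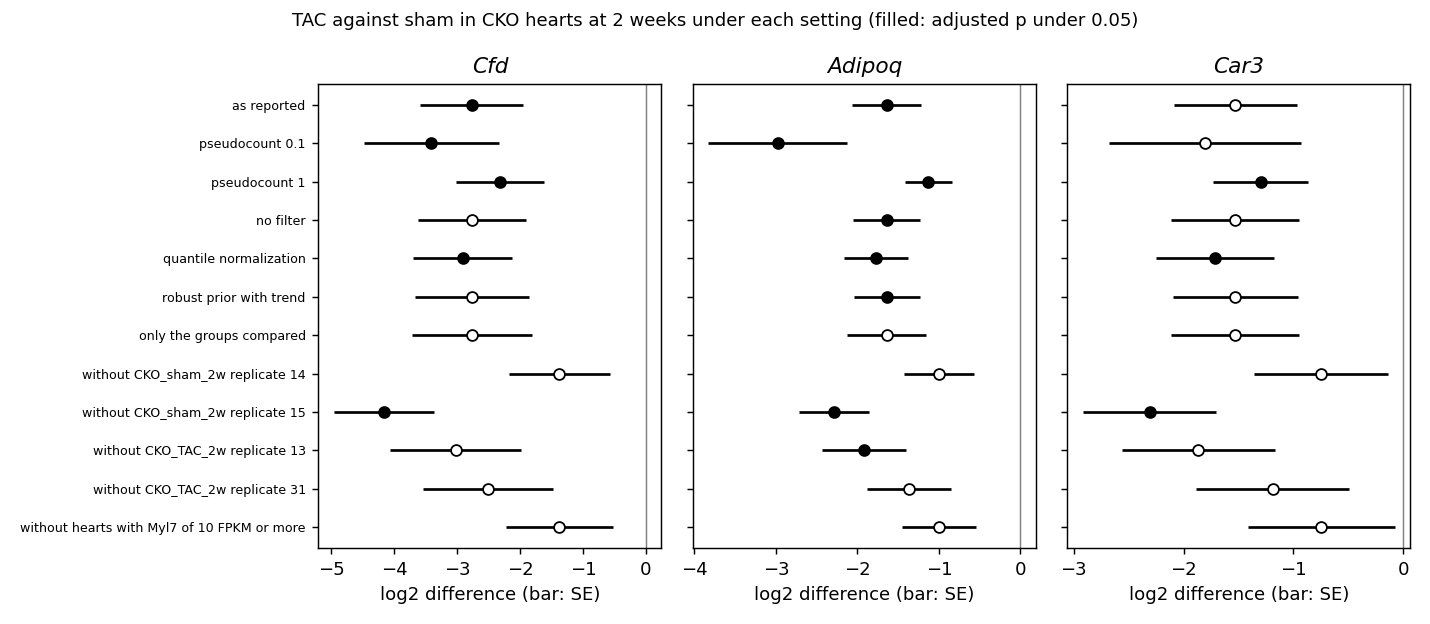
Log2 difference of FPKM + 0.5 (bar, SE) between TAC and sham in CKO hearts at 2 weeks for Cfd, Adipoq and Car3, 1 row per setting, filled where the adjusted p was under 0.05. The values of Cfd run from -4.16 without heart 15 to -1.38 without heart 14.

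In the other TAC comparisons 0 of the 3 tested genes passed limma. In control hearts of both times the differences were -0.70 ± 0.58 for Cfd, -0.32 ± 0.30 for Adipoq and -0.61 ± 0.40 for Car3 (adjusted p = 0.39, 0.45 and 0.27; 0 of 3 at an unadjusted p under 0.05), beside 31.4% of all tested genes called. In CKO hearts of both times they were -1.02 ± 0.58, -0.79 ± 0.30 and -1.02 ± 0.40 (adjusted p = 0.29, 0.11 and 0.12), beside 9.11% called. Adipoq and Car3, 2 of 3, had an unadjusted limma p under 0.05 there, as did 3265 of the 12589 tested genes. Adipoq passed the filter only through heart 14, a sham heart of this comparison, so the count of 2 is no support. In control hearts at 2 weeks the differences were -0.21 ± 0.82, -0.24 ± 0.42 and -0.42 ± 0.56 and at 4 weeks -1.19 ± 0.82, -0.39 ± 0.42 and -0.79 ± 0.56, with 0 of 3 called (adjusted p = 0.38 to 0.89; 0 of 3 at an unadjusted p under 0.05), beside 23.8% and 12.7% of all tested genes. Car3 was lower without overlap in the control TAC hearts at 2 weeks, 1 of 7 genes, as were 31.3% of all tested genes, and Cfd and Car3 at 4 weeks, 2 of 7, as were 28.6%.

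At 4 weeks in CKO hearts Cfd was at 0.72 ± 0.82, Adipoq at 0.06 ± 0.42 and Car3 at -0.51 ± 0.56 (limma adjusted p = 0.75, 0.97 and 0.74; 0 of 3 at an unadjusted p under 0.05), beside 0.262% of all tested genes called. Without heart 41, Cfd was at -0.39 and Adipoq at -0.36. The difference between genotypes in the TAC response, over both times, was tested itself and was -0.33 ± 0.82 for Cfd, -0.47 ± 0.42 for Adipoq and -0.41 ± 0.56 for Car3 (limma adjusted p = 0.91, 0.69 and 0.82; 0 of 3 at an unadjusted p under 0.05), beside 1.25% of all tested genes called. The same difference of responses at 2 weeks alone was not tested.

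Time was the remaining axis. From 2 to 4 weeks after TAC, with both genotypes averaged, Car3 fell by 1.34 ± 0.40 on the log2 scale (limma adjusted p = 0.025), while Cfd at -0.36 ± 0.58 and Adipoq at -0.15 ± 0.30 did not pass. Thus 1 of 3 was called lower, where 11.9% of all tested genes were called lower and 24.8% in either direction. Car3 at 2 weeks was 3.01, 2.21, 1.54 and 0.776 FPKM, and at 4 weeks 0.311, 0, 0.225 and 1.54, so the groups overlap through heart 41. The call of Car3 ended without heart 11, 13, 2 or 3 (limma adjusted p of 0.070 to 0.11) and when the hearts in which Myl7 reached 10 FPKM were left out (0.077).

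In sham hearts the difference of 4 against 2 weeks was -1.61 ± 0.58 for Cfd, -0.93 ± 0.30 for Adipoq and -1.67 ± 0.40 for Car3. Limma called none of them (adjusted p = 0.24, 0.20 and 0.14) and 0% of all tested genes, while 3 of 3 and 1894 of 12589 had an unadjusted p under 0.05. Adipoq passed the filter only through heart 14, a sham heart at 2 weeks, so the count of 3 is no support. Cfd, Adipoq, Plin1 and Car3, 4 of the 7, did not overlap and were lower in the 4 sham hearts at 4 weeks than in the 4 at 2 weeks, as were 3.23% of all tested genes. Plin1 had 0.0846 FPKM as the highest value at 4 weeks, in heart 4, and 0.0853 as the lowest at 2 weeks, in heart 15. Each came from 1 fragment, so depth alone separated those hearts. Plin1 also lay under the filter and is not among the genes of that share. Sham at 2 weeks against the end of tamoxifen gave 1.36 ± 0.58, 1.048 ± 0.30 and 1.72 ± 0.40 for Cfd, Adipoq and Car3. Limma called 0 of 3 there (adjusted p = 0.27, 0.12 and 0.060), beside 0.913% of all tested genes. An unadjusted limma p under 0.05 was reached by 3 of 3, and by 1967 of the 12589 tested genes. Heart 14, through which Adipoq passed the filter, is among these sham hearts too, so that count is no support either. Car3 alone of the 7 did not overlap, with 2.21 FPKM or more in the sham and 2.104 or less in the earlier hearts, as did 5.34% of all tested genes that were higher. Over all 10 groups at once, limma's F test called Car3 (adjusted p = 0.012) and not Adipoq (0.057) or Cfd (0.099), beside 30.4% of all tested genes called.

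**Figure D4:**
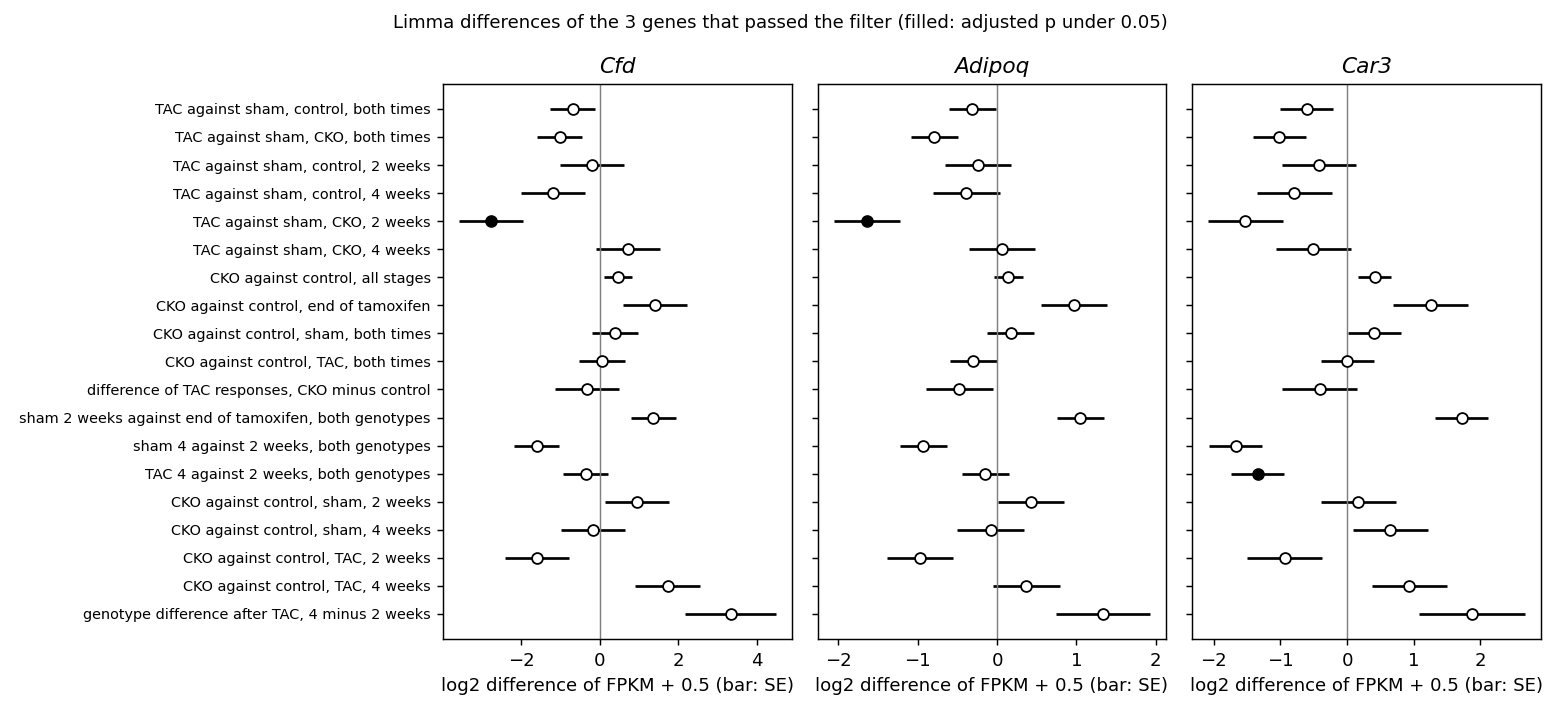
Log2 differences of FPKM + 0.5 (bar, SE) for Cfd, Adipoq and Car3 in 19 comparisons, filled where limma's adjusted p was under 0.05. Filled points are Cfd at -2.77 and Adipoq at -1.64 for TAC in CKO hearts at 2 weeks, and Car3 at -1.34 for 4 against 2 weeks after TAC.

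The rest of the adipocyte programme was read from lists of related genes. Many genes of lipid storage and release had higher levels than the 7 genes, but not all. Acvr1c, a receptor, had a mean of 0.0106 FPKM and Prkar2b, a kinase subunit, of 0.551. Fabp4, the fatty acid carrier of fat and capillaries, ranged from 1569 to 3337 FPKM, Lpl, the lipase that frees fatty acids from lipoproteins, from 1094 to 2732, and Cd36, a fatty acid transporter, from 679 to 1071. The droplet protein gene Plin4 ranged from 15.4 to 47.6. None of the 22 genes of that list was highest in heart 14. Among transcription factors, Pparg ranged from 5.51 to 10.2 FPKM, with 7.76 in heart 14 and 9.22 in heart 2, and Cebpa from 1.89 to 4.91, with 2.17 and 2.53. Of the 13, 2 were highest in heart 14. These were Cebpb, which starts adipocyte differentiation and responds to inflammation, at 43.9 FPKM, and Cebpd at 19.5. None of the 7 adipokine receptor genes was highest in heart 14, and Adipor1, which binds adiponectin, ranged from 116 to 144 FPKM.

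Of 25 secreted and surface genes with any signal, 4 were highest in heart 14, and of 15 lipogenesis genes 1 was. Apoc1, at 1.78 FPKM, Cyp2e1, at 1.99, Slc7a10, at 0.315, and Sncg, at 19.1, were highest in heart 14, and the last 3 of them were at 0.477, 0 and 10.01 in heart 15. Pck1, the first enzyme of glycerol synthesis from small precursors in fat, was also highest there, at 0.329 FPKM. C3, the complement protein that acts with factor D, was at 82.2 FPKM in heart 14, the highest of 20, and 45.5 in heart 15. These genes and Cebpb were picked out after their values were seen.

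**Figure D5:**
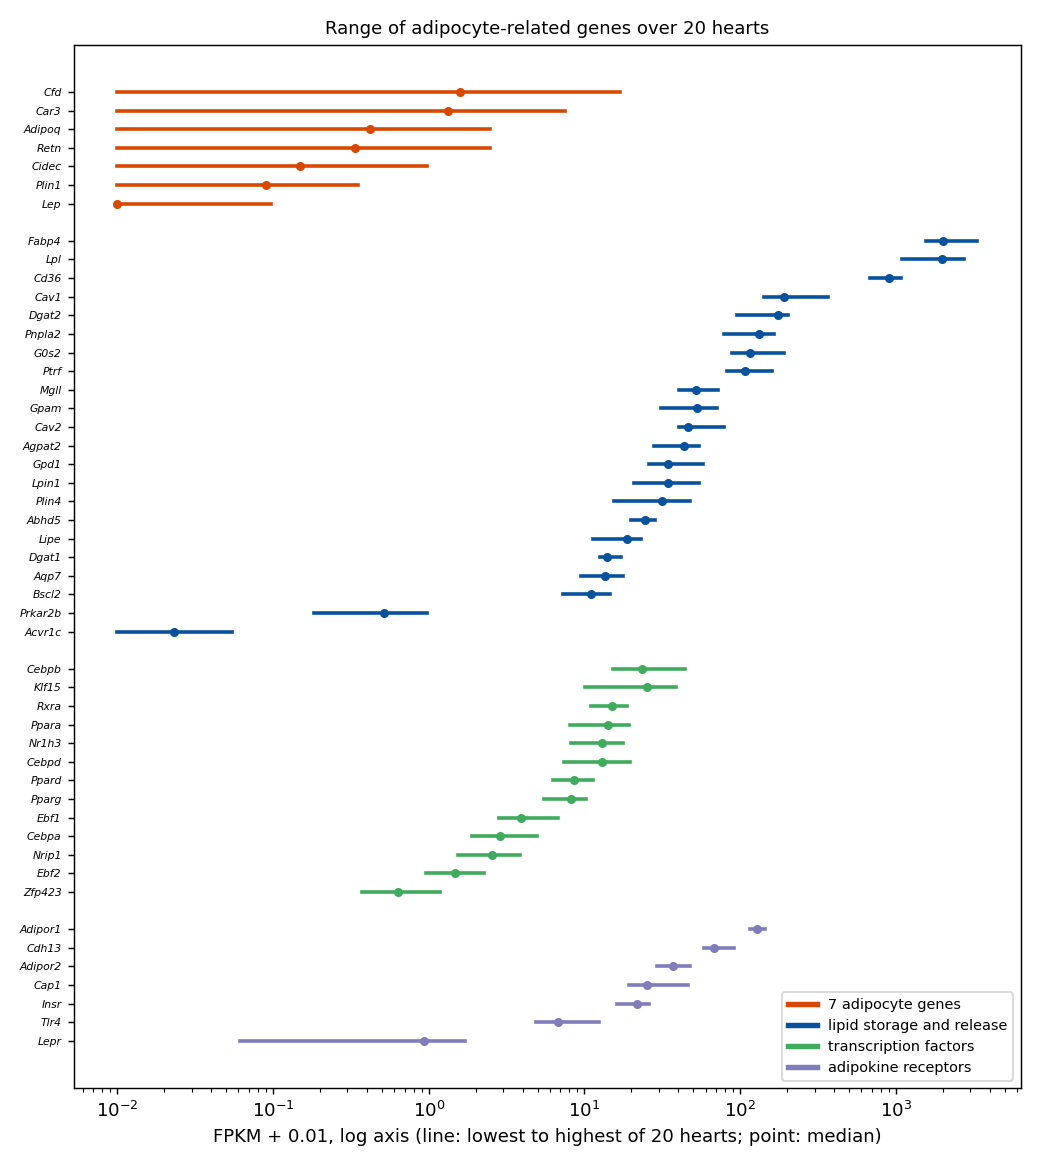
Range (line) and median (point) of FPKM + 0.01 over 20 hearts on a log axis for the 7 adipocyte genes, 22 genes of lipid storage and release, 13 transcription factors and 7 adipokine receptors. The 7 genes reach down to 0 and span more than most of the genes below them, while Fabp4 stays between 1569 and 3337 FPKM.

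Other lists held genes that changed with TAC. Over both times 15.3% of all tested genes rose and 16.1% fell in control hearts, and 4.23% rose and 4.89% fell in CKO hearts. Of 21 tested genes of lipid storage and release, 7 fell and 1 rose in control hearts of both times, with a median log2 difference of -0.22 against 0.00 over all tested genes, and 6 fell and 1 rose in CKO hearts. Dgat2, which makes triglyceride, fell by 0.70 ± 0.08 in control hearts (limma adjusted p = 2.9e-05) and Plin4 by 0.79 ± 0.11 (1.2e-04). In CKO hearts Plin4 fell by 0.70 ± 0.11 (limma adjusted p = 0.0022). Of 13 transcription factors, 4 fell and 0 rose in control hearts, led by Klf15 at -1.30 ± 0.16 (limma adjusted p = 4.9e-05), and 2 fell and 0 rose in CKO hearts. Of 13 lipogenesis genes, 3 fell and 1 rose in control hearts, where the glucose transporter gene Slc2a4 was at -0.66 ± 0.07 and the desaturase gene Scd1 at 0.62 ± 0.13, and 2 fell and 1 rose in CKO hearts. Myocytes express many of these genes, and 4 of 8 ventricular myocyte genes also fell in control hearts.

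Among 17 secreted and surface genes, 3 rose and 2 fell in control hearts and 0 rose and 2 fell in CKO hearts. Retnla, a resistin-like gene known from alternatively activated macrophages, fell by 3.05 ± 0.34 in control hearts (limma adjusted p = 2.2e-05). Of 12 tested genes of the brown fat list, 2 rose and 7 fell in control hearts and 1 rose and 3 fell in CKO hearts. They include Cox7a1, Cox8b and Fabp3, with means of 5477, 4861 and 2839 FPKM, while Ucp1, at 0, was not tested. These counts are therefore not a measure of brown fat. Dio2, which activates thyroid hormone, rose by 2.72 ± 0.16 (limma adjusted p = 1.3e-07) in control and by 0.92 ± 0.16 (0.0045) in CKO hearts, and Cox7a1, a subunit that heart muscle also uses, fell by 0.80 ± 0.10 (5.5e-05) in control hearts. Of 7 adipokine receptor genes, 1 rose and 2 fell in control hearts, where Tlr4 was at 0.79 ± 0.16 (limma adjusted p = 0.0019), and 0 rose and 1 fell in CKO hearts. Of 8 genes of adipocyte progenitors, which fibroblasts share, 5 rose and 0 fell in control hearts, with Pi16 at 1.88 ± 0.11 (limma adjusted p = 1.0e-07), and 4 rose and 0 fell in CKO hearts.

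The genes whose pattern was most like that of the tested members were sought over the 20 hearts, by Pearson's r with the mean log2(FPKM + 0.5) of Cfd, Adipoq and Car3, among genes that averaged 1 FPKM or more. By level the first were Mat2a at r of 0.70, Gfpt2 at 0.69, C3 at 0.67 and Myl7 at 0.64. The first 15 also held Nr1h2, Zfp317, Zfand1, Errfi1, Sln, Sdc4, Myl4, Hamp, Coq10b, Mybphl and Mier3, at 0.59 to 0.62. Without heart 14, Gfpt2 was at 0.49, C3 at 0.56 and Myl7 at 0.49. On deviations from the group means the first were Sertad1 at 0.88, Arhgap39, Nfkbiz and Casp12 at 0.87 and Tlcd1 at 0.86, followed by Vcam1, Abhd16a, Trim30d, Srrd, Hebp2, Ccnl1, Ms4a6c, Spast, Jdp2 and Tmem55b at 0.81 to 0.85. The 2 orders share none of their first 15 genes. With so many genes ranked over 20 hearts these are descriptions.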

How the data were processed

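Messenger RNA of 20 mouse hearts, 2 in each of 10 groups, was measured. Libraries were made with a stranded kit, per the labels' protocols. The deposited values are FPKM for 23284 genes per heart; per the submitters' processing notes, the authors used TopHat2 2.1.1, Bowtie2 and Cuffdiff 2.2.1 with build mm10. The use of strand in counting is not stated in the labels. The tables hold no counts. Fragments per gene were derived from the steps of the low FPKM, and 279 genes with a single transcript of 1000 bases or more put the median depth near 6802150 fragments.

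Genes averaging 0.5 FPKM or more were analysed as log2(FPKM + 0.5), which understates changes of low genes, with limma 3.58.1 in R 4.3.3: 10 group means, a trend prior, 10 residual degrees of freedom, a median of 3.81 prior ones, and Benjamini-Hochberg adjustment over 12589 genes, called under 0.05. The labels name separate hearts as replicates. The members, the gene lists and the tests were chosen with earlier results of these data known, and the genotype comparisons within a time were added later. All 7 members are named; other list genes are named where they passed limma (up to 4 a list, smallest p) or had the highest means, and the 15 most alike by Pearson's r, leaving out 4 and 1 clone-named or predicted genes. Alternatives tried were a pseudocount of 0.1 or 1, no filter, a filter of 3 FPKM, median-ratio and quantile scaling, a prior without trend and a robust one, only the groups compared, each heart left out, and all hearts in which Myl7 reached 10 FPKM left out. The fit was tested on simulated data. Figures were drawn with Python 3.11.15 and matplotlib 3.10.9.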

Additional observations from a re-analysis of the deposited data

Results flagged for a closer look

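In the 4 hearts of a genotype and operation, taken over both times, 27 combinations of gene and set with any signal were examined. A heart was flagged where its gap to the next, in FPKM, was beyond Dixon's 95% critical value. For normally distributed values chance gives that in about 1 of 20 sets. That rate need not hold here, because FPKM were not log-transformed and 2 times were pooled. The rule was not applied to log2 values, so a flag marks a heart to look at and not a tested outlier. Such a heart was found in 4 combinations, 2 of them of Cfd. Cfd was 17.0 FPKM in heart 14 among the CKO sham hearts, and 4.75 FPKM in heart 41 among the CKO TAC hearts. The other 2 were of Lep, which was 0.0416 FPKM in heart 16 among the control sham hearts and 0.0486 FPKM in heart 3 among the CKO TAC hearts, each from 1 fragment while the other 3 hearts were at 0. A single fragment beside 3 hearts at 0 is beyond the value by construction, so these 2 say nothing about a heart standing apart. Heart 41 had the lowest blood markers of the 20, with Hba-a1 at 90.6 FPKM against 588 or more in the others and Alas2 at 1.46 against 11.5 or more, and their part in its Cfd was not tested.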

How the results depend on the processing

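Of 3419 values recomputed for 118 results, 3228 were labelled unchanged. For a difference this means the same direction and side of the threshold, so an uncalled difference that stayed uncalled is included. Counts of called members that were close, such as 2 and 3, were labelled unchanged too. The median gap between hearts was labelled so when it moved by less than the spread of the gaps. For TAC in CKO hearts at 2 weeks the count of called members was 2; it was 3 with a pseudocount of 1 or quantile scaling, 1 with no filter or with a robust prior, and 0 with only the groups compared or leaving out hearts in which Myl7 reached 10 FPKM. Leaving out 1 heart gave 0 to 3 there, 0 to 1 for TAC in CKO hearts of both times, for sham at 2 weeks against the end of tamoxifen and for TAC at 4 against 2 weeks, and 1 to 3 for the F test. Quantile scaling gave 1 for sham at 2 weeks against the end of tamoxifen and 2 for the F test, as did the robust prior for the F test, and without the hearts with high Myl7 both the F test and TAC at 4 against 2 weeks gave 0. The cause was not tested. A group left with 1 heart is assumed to vary like the others. With a filter of 3 FPKM no member is left, and without the hearts with high Myl7 no CKO heart of the end of tamoxifen is left, so neither gave values there.

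Uncalled differences changed sign in places. Car3 for CKO against control after TAC was 0.34 with a pseudocount of 0.1 and 0.093 without the hearts with high Myl7. Without those hearts Cfd and Adipoq for CKO against control in sham hearts were -0.46 and -0.10, and the genotype difference of the TAC response was 0.77 for Cfd and 0.070 for Car3. With 1 heart left out, Cfd ranged from -0.72 to 0.31 for TAC in control hearts at 2 weeks, -0.39 to 1.83 for TAC in CKO hearts at 4 weeks, -0.31 to 1.08 and -0.50 to 0.62 for CKO against control in sham and TAC hearts, -1.02 to 0.37 for the difference of responses and -0.92 to 0.20 for TAC at 4 against 2 weeks. Adipoq ranged from -0.50 to 0.0093 and -0.81 to 0.037 for TAC in control hearts at 2 and 4 weeks, -0.36 to 0.49 for TAC in CKO hearts at 4 weeks, -0.15 to 0.49 for CKO against control in sham hearts and -0.37 to 0.061 for TAC at 4 against 2 weeks. Car3 ranged from -1.25 to 0.24 for TAC in CKO hearts at 4 weeks and -0.37 to 0.37 for CKO against control after TAC. For the comparisons within a time, chosen after seeing the data, CKO against control in sham hearts at 2 weeks ranged from -0.44 to 2.34 for Cfd, -0.21 to 1.07 for Adipoq and -0.61 to 0.95 for Car3 with 1 heart left out, and was -0.74, -0.13 and -0.60 without the hearts with high Myl7. At 4 weeks it ranged from -0.66 to 0.31 for Cfd and -0.21 to 0.050 for Adipoq, and after TAC at 4 weeks from -0.058 to 0.79 for Adipoq. The median gap between hearts of a group, 0.69, was 0.42 to 1.00 over its alternatives.

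Of the named genes of other lists, 6 of 24 in control and 13 of 16 in CKO hearts missed the threshold under at least 1 alternative (limma adjusted p up to 0.14 and 0.26), and 0 changed direction. No paired analysis was possible because the heart numbers are all different. Lep, Plin1, Retn and Cidec had 11 fragments or fewer in any heart, which limits how closely their levels are known.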
